A study of Mus musculus with 18 samples.

Results

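Genes of cytokine signalling were followed through culture of LT-HSCs, the long-lived stem cells of mouse bone marrow from which the blood lineages arise. These were 9 genes, taken by name from the 21003 gene symbols of the count table: the receptor genes Kit, Csf3r and Csf2rb, and Socs1, Socs2, Socs3, Cish, Pim1 and Osm, which STAT transcription factors are known to induce. RNA was measured in 18 libraries of 100 sorted cells each, 6 per group: LT-HSCs cultured for 48 h at pH 6.9, LT-HSCs cultured for 48 h at pH 7.4, and fresh LT-HSCs labelled pH 7.4 and uncultured. Both cultures used IMDM with 10% fetal bovine serum and 50 ng/ml of stem cell factor, G-CSF and thrombopoietin, kept at 3% oxygen. All mice were 8 to 12 weeks old and wild type; one label field gives the strain as B6.SJL and another as C57 B6. Fresh and cultured cells differ in cytokines, serum, oxygen and time at once, and the parts of these cannot be told apart.

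Stem cell factor acts on the receptor tyrosine kinase Kit and G-CSF on the receptor encoded by Csf3r. The G-CSF receptor has no kinase of its own and signals through JAK kinases, which phosphorylate STAT factors. STATs then switch on genes that include brakes on the same signal: Cish and the Socs genes encode proteins that bind receptors or JAKs and limit further signalling. Pim1 encodes a survival kinase and Osm a cytokine of the IL-6 family. Csf2rb encodes the beta chain shared by the receptors for GM-CSF, IL-3 and IL-5, none of which is named among the cytokines of the medium.

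Total counts ranged from 1640817 to 7508120 per library apart from fresh replicate 1, which held 6311 counts. Fresh replicate 1 (3035 genes detected), fresh replicate 4 (9408) and pH 6.9 replicate 3 (8925) were left out of the tests, which leaves 5 libraries at pH 6.9, 6 at pH 7.4 and 4 fresh. Most of the 9 genes were low in the deeper 2 of these: Kit had 10.6 CPM (counts per 1e+06) in pH 6.9 replicate 3 and 17.9 CPM in fresh replicate 4, Csf2rb 3.91 and 2.45 CPM, and Csf3r 0.559 and 0.701 CPM in the same order. Fresh replicate 1 had 1 count for Kit and 0 for the other members, where a count of 0 allows up to 475 CPM. In each group the odd-numbered mice carry a sequencing index (i7) other than that of the even-numbered mice. All 3 groups were therefore also compared within each set, where index and mouse number cannot be told apart. No index is shared between groups (701 and 702 in fresh cells, 705 and 706 at pH 6.9, 707 and 708 at pH 7.4). Within a set, group and index therefore cannot be told apart either. Each library stands for cells of 1 mouse number. A p-value rests on the spread between libraries, which includes amplification from few cells. That spread was estimated over all tested libraries at once, so a p-value within a set also depends on libraries outside the comparison. In the fit of whole groups the spread also holds differences between the sets. With 100 cells per library, a change in the share of cells that express a gene cannot be told apart from a change of RNA per cell. The 10 stem cell markers were nearly all detected in each tested library (at most 1 of the 10 at 0), whereas 3 to 6 of 6 mature neutrophil markers were at 0.

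None of the 9 genes changed past the threshold between the groups as a whole. In edgeR's quasi-likelihood test over 15 libraries, 0 of 9 members were called at an adjusted p (Benjamini-Hochberg over 10659 genes) of 0.05 for pH 6.9 culture against fresh cells, for pH 7.4 culture against fresh cells, and for pH 6.9 against pH 7.4. Over all genes 0 were called in each of these comparisons (0% of genes), with 595, 613 and 657 genes at an unadjusted p under 0.05. With DESeq2 0, 0 and 1 genes were called. The unadjusted p was under 0.05 for 0, 1 and 1 of the 9 members in these comparisons (against 5.58%, 5.75% and 6.16% of all genes), and in none of the 3 did the libraries of any member separate (1.89%, 1.75% and 0.516% of all genes). The median log2 fold change of the 9 members was 0.19 for pH 6.9 against fresh cells, 0.06 for pH 7.4 against fresh cells and -0.12 for pH 6.9 against pH 7.4, and over all genes it was -0.00, 0.02 and -0.00.

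**Figure D1:**
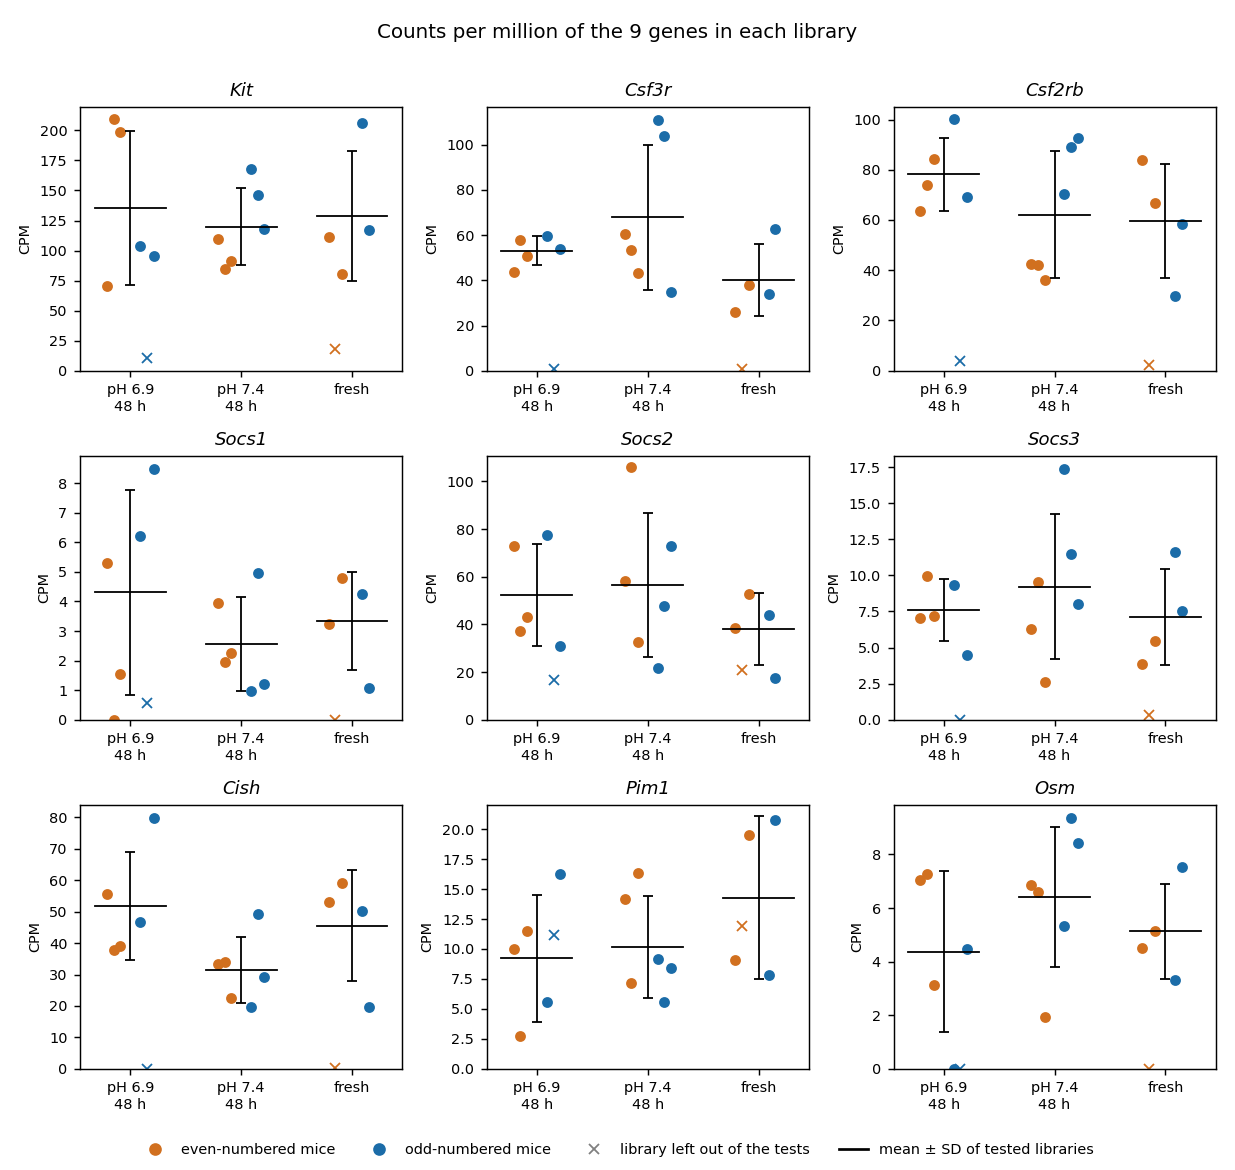
CPM (linear axis from 0) of each of the 9 genes in each library, by group, with even- and odd-numbered mice in separate colours, crosses for libraries left out of the tests, and the mean and SD of the tested libraries; fresh replicate 1, with 6311 counts, is not drawn. The groups overlap in all 9 panels, and Csf2rb at pH 7.4 splits into even-numbered mice at 36.2 to 42.4 CPM and odd-numbered mice at 70.5 to 92.4 CPM.

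Among the receptors, Kit, the receptor of stem cell factor (chr5:75574916-75656722, plus strand, GRCm38), was abundant before and after culture. In the tested libraries it averaged 136 ± 63.9 CPM at pH 6.9 (SD, n = 5), 120 ± 32.2 CPM at pH 7.4 (n = 6) and 129 ± 54.1 CPM in fresh cells (n = 4). Its log2 fold change was 0.08 ± 0.32 (SE) for pH 6.9 against fresh cells, with a 95% interval of the fold from 0.662 to 1.68. For pH 7.4 against fresh cells it was -0.11 ± 0.31, with a fold interval of 0.593 to 1.45. At pH 6.9 the even- and odd-numbered libraries of Kit overlapped. In even-numbered mice Kit had 70.5, 209 and 199 CPM at pH 6.9, 110, 84.6 and 91.6 CPM at pH 7.4, and 111 and 80.4 CPM in fresh cells. In odd-numbered mice it had 104 and 95.4 CPM at pH 6.9, 168, 147 and 118 CPM at pH 7.4, and 206 and 117 CPM in fresh cells. Thus 2 of 3 even-numbered pH 6.9 libraries were the highest of their set and the other was the lowest of it. Both odd-numbered ones were the lowest of theirs. In odd-numbered mice the libraries of 37.5% of all genes separated at pH 6.9 against pH 7.4, and of 43.8% at pH 6.9 against fresh cells. The difference between the sets (even minus odd) in the effect of pH 6.9 against pH 7.4 was 1.32 ± 0.48 on the log2 scale and did not pass (adjusted p = 0.0672 in edgeR, over 11226 genes). For pH 6.9 against fresh cells it was 1.49 ± 0.53 (adjusted p = 0.0755). These Kit values depend on pH 6.9 replicate 2: without it both differences passed (1.63, adjusted p = 0.00523, and 1.80, adjusted p = 0.00851, in edgeR), as did the even-numbered mice alone against pH 7.4 (1.09, adjusted p = 0.0213) and against fresh cells (1.09, adjusted p = 0.0210). Without fresh replicate 5 the second difference also passed (1.81, adjusted p = 0.0411).

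Csf3r, the receptor of G-CSF (chr4:126024550-126044440, plus strand), averaged 53.2 ± 6.46 CPM at pH 6.9 (SD, n = 5), 67.9 ± 31.95 CPM at pH 7.4 (n = 6) and 40.2 ± 15.8 CPM in fresh cells (n = 4). Among the 9 genes it had the largest difference between pH 7.4 culture and fresh cells, a log2 fold change of 0.75 ± 0.31, which did not pass in edgeR (unadjusted p = 0.0272, adjusted p = 0.771). The fold interval ran from 1.07 to 2.65. The pH 6.9 culture differed from fresh cells by 0.40 ± 0.32. By set, the even-numbered mice had 43.5, 58.0 and 50.7 CPM at pH 6.9, 60.5, 53.6 and 43.3 CPM at pH 7.4, and 26.2 and 38.1 CPM in fresh cells. All 6 cultured libraries of these mice lay above both fresh ones, without passing the test (0.70 ± 0.40 at pH 6.9, adjusted p = 0.300, and 0.72 ± 0.40 at pH 7.4, adjusted p = 0.493, in edgeR). In odd-numbered mice Csf3r had 59.7 and 53.9 CPM at pH 6.9, 111, 104 and 34.97 CPM at pH 7.4, and 33.8 and 62.8 CPM in fresh cells, and the groups overlapped. Between the cultures the log2 fold change was -0.35 ± 0.29.

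**Figure D2:**
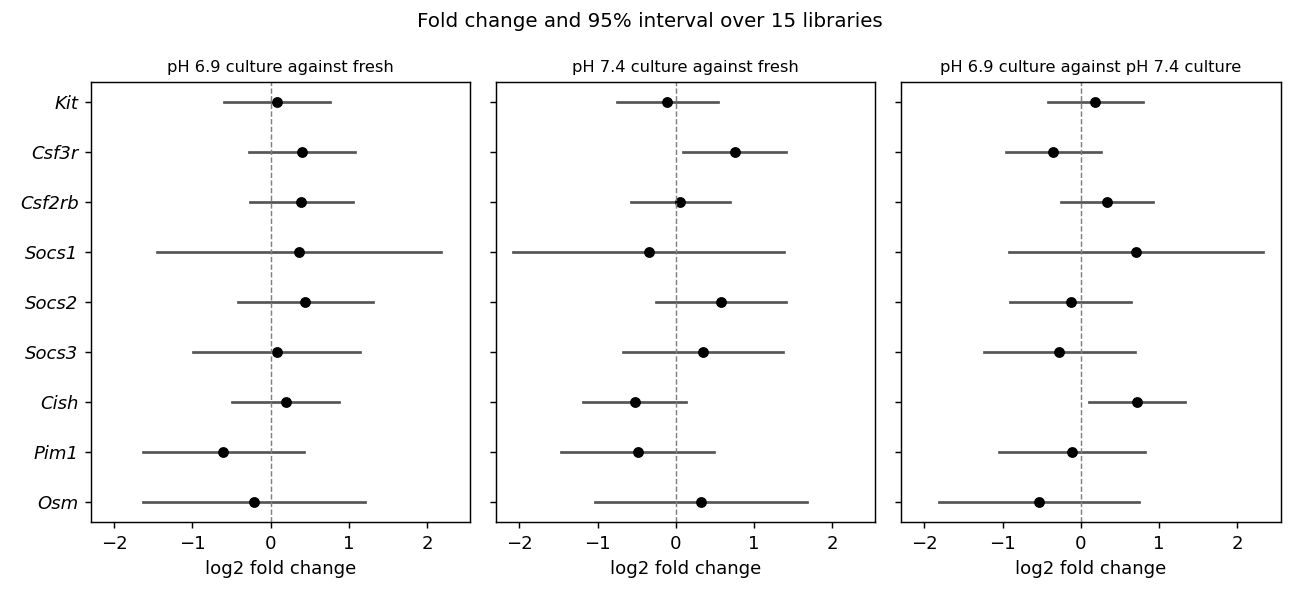
Log2 fold change (points) and 95% interval (lines) of each of the 9 genes in the 3 comparisons between groups, from the edgeR fit over 15 libraries. All intervals include 0 except those of Csf3r at pH 7.4 against fresh cells and Cish at pH 6.9 against pH 7.4, and neither passed after adjustment over all genes.

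Csf2rb (chr15:78325752-78353847, plus strand) was the member that was called, and only between the cultures of even-numbered mice. There it had 63.4, 73.8 and 84.4 CPM at pH 6.9, 42.4, 42.1 and 36.2 CPM at pH 7.4, and 83.7 and 66.94 CPM in fresh cells. All 3 libraries at pH 6.9 lay above all 3 at pH 7.4, and the pH 6.9 and fresh ranges overlapped. The log2 fold change of pH 6.9 against pH 7.4 was 0.91 ± 0.26 (1.88-fold, 95% interval 1.29 to 2.74; adjusted p = 0.0431 in edgeR). Of the 9 members 1 was called in this comparison, where 6.24% of all genes were called in either direction and 2.68% were called higher. In odd-numbered mice Csf2rb had 100 and 69.1 CPM at pH 6.9, 70.5, 89.2 and 92.4 CPM at pH 7.4, and 29.6 and 58.5 CPM in fresh cells. Here the cultures overlapped (log2 fold change -0.00 ± 0.28) and both lay above the fresh libraries, with log2 fold changes of 0.94 ± 0.32 at pH 6.9 (adjusted p = 0.202) and 0.94 ± 0.30 at pH 7.4 (adjusted p = 0.229), neither of which passed in edgeR. At pH 7.4 against fresh cells the even-numbered mice went the other way (-0.89 ± 0.28, adjusted p = 0.226), and the difference between the sets was -1.83 ± 0.41 (adjusted p = 0.122).

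The call for Csf2rb was close to the threshold. With the mouse number as a replicate block the log2 fold change was 0.91 and did not pass (adjusted p = 0.0690 in edgeR), and with all 18 libraries it was 0.91 (adjusted p = 1). It was lost in 9 of the 15 fits that left out 1 library, at log2 fold changes of 0.77 to 0.97: the adjusted p was 0.0545 without fresh replicate 2. Among the pH 7.4 libraries it was 0.0526 without replicate 1, 0.121 without 2, 0.0583 without 3, 0.105 without 4 and 0.195 without 6. Among those at pH 6.9 it was 0.0645 without replicate 2, 0.0916 without 4 and 0.191 without 6. The difference between the sets at pH 7.4 against fresh cells passed with DESeq2 (-1.87, adjusted p = 0.00564) and with no filter on low counts (-1.84, adjusted p = 0.00422). The difference at pH 6.9 against fresh cells passed without fresh replicate 5 (-1.52, adjusted p = 0.0350), against -0.93 (adjusted p = 0.170) with it.

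Csf2rb2 (chr15:78282507-78305721, minus strand), the neighbouring copy that encodes an IL-3-specific beta chain in mice, followed the same pattern in even-numbered mice. It had 37.6, 35.1 and 30.6 CPM at pH 6.9, 8.16, 6.60 and 5.03 CPM at pH 7.4, and 39.8 and 16.3 CPM in fresh cells. The pH 6.9 libraries were all above those at pH 7.4, a log2 fold change of 2.41 ± 0.46 (adjusted p = 0.00460 in edgeR) that passed in all 15 fits leaving out 1 library and did not pass with all 18 libraries (adjusted p = 0.861). The odd-numbered mice had 83.9 and 30.1 CPM at pH 6.9, 26.6, 58.9 and 84.4 CPM at pH 7.4, and 10.9 and 10.2 CPM in fresh cells. The difference between the sets passed at pH 7.4 against fresh cells (-4.51 ± 0.72, adjusted p = 0.0257), though not without fresh replicate 2 (0.200), fresh replicate 5 (0.137), pH 7.4 replicate 5 (0.0624) or pH 7.4 replicate 6 (0.0947). The copies are nearly identical in sequence and the sources used here do not say how reads were divided between them, so the value of each gene alone is uncertain. Counted as 1 gene, an alternative chosen after seeing the data, they were higher at pH 6.9 than at pH 7.4 in even-numbered mice by 1.24 on the log2 scale (adjusted p = 0.0119 in edgeR). Counted so, the difference between the sets also passed at pH 6.9 against pH 7.4 (1.24, adjusted p = 0.0421) and at pH 7.4 against fresh cells (-2.50, adjusted p = 0.0259). Over the 15 libraries the genes whose log2 CPM was most like that of Csf2rb were Snhg11 (Pearson r = 0.89), Csf2rb2 (0.89) and Jmjd1c (0.88), of 8254 genes compared.

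**Figure D3:**
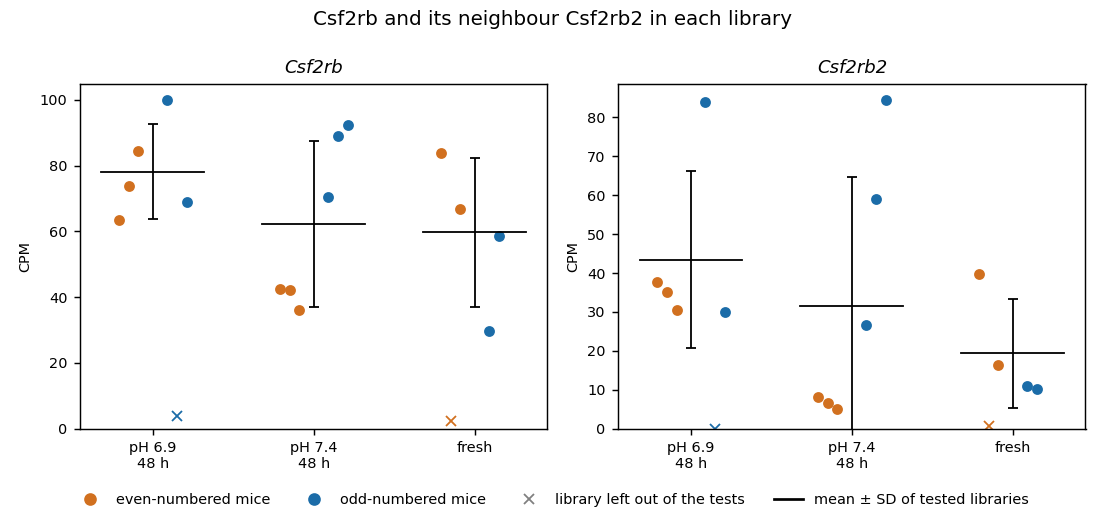
CPM (linear axes from 0) of Csf2rb and its neighbour Csf2rb2 in each library, by group and set of mice, with the mean and SD of the tested libraries and crosses for those left out; fresh replicate 1 is not drawn, and the SD bar of Csf2rb2 at pH 7.4 stops at 0. In even-numbered mice the pH 6.9 libraries lie at 63.4 to 84.4 CPM and 30.6 to 37.6 CPM in these panels, against 36.2 to 42.4 CPM and 5.03 to 8.16 CPM at pH 7.4.

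Markers of some other cells differed along the same contrast. In even-numbered mice the cultures separated in the sums of granule-progenitor markers and of mast cell and basophil markers. The sums of monocyte and macrophage, megakaryocyte, erythroid, B cell, T cell and mature neutrophil markers overlapped between these cultures. In even-numbered mice the summed level of 6 granule-progenitor markers was 34.5 to 50.5 CPM at pH 6.9 (0 to 3 of the 6 at 0), 1789 to 5224 CPM at pH 7.4 (0 to 1 at 0) and 118 to 277 CPM in fresh cells (1 to 2 at 0). Ctsg, a granule protease, had 0, 0 and 0.195 CPM at pH 6.9 and 189, 133 and 597 CPM at pH 7.4 in those mice. The 6 mast cell and basophil markers summed to 2.35 to 23.9 CPM at pH 6.9 (2 to 5 at 0) and 38.6 to 183 CPM at pH 7.4 (1 to 3 at 0). The 10 stem cell markers summed to 1363 to 1628 CPM at pH 6.9, 439 to 702 CPM at pH 7.4 and 777 to 799 CPM in fresh cells. In odd-numbered mice the granule-progenitor sum was 167 to 169 CPM at pH 6.9 and 45.4 to 75.4 CPM at pH 7.4, and in the 2 fresh libraries 77.6 and 5620 CPM. The stem cell sum of odd-numbered mice was 1108 to 1488 CPM at pH 6.9 and 1090 to 1637 CPM at pH 7.4, which overlapped. In fresh cells it was 608 to 864 CPM, below both cultures, and Csf2rb stood in the same order in these mice. The orders differed in even-numbered mice, where the stem cell sum at pH 6.9 lay above that of fresh cells. Csf2rb overlapped there, at 63.4 to 84.4 CPM at pH 6.9 and 66.94 to 83.7 CPM in fresh cells. The part of these cell markers was not tested, for Csf2rb, Kit or the other genes compared within the sets.

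Among the STAT-induced brakes, Cish (chr9:107296026-107302784, plus strand), which encodes a STAT5-induced inhibitor of cytokine receptors, was lowest on average in the pH 7.4 culture. It averaged 51.8 ± 17.3 CPM at pH 6.9 (SD, n = 5), 31.4 ± 10.5 CPM at pH 7.4 (n = 6) and 45.5 ± 17.7 CPM in fresh cells (n = 4). In even-numbered mice it had 55.8, 37.8 and 39.0 CPM at pH 6.9, 33.4, 34.0 and 22.4 CPM at pH 7.4, and 53.0 and 59.3 CPM in fresh cells. In odd-numbered mice it had 46.6 and 79.9 CPM at pH 6.9, 19.8, 49.3 and 29.3 CPM at pH 7.4, and 50.2 and 19.7 CPM in fresh cells. The pH 7.4 libraries of even-numbered mice lay below all others of that set, while in odd-numbered mice the groups overlapped. Over the groups Cish differed by 0.72 ± 0.29 on the log2 scale between pH 6.9 and pH 7.4 (fold interval 1.07 to 2.52), which did not pass in edgeR (unadjusted p = 0.0246, adjusted p = 0.790). Both sets had a positive log2 fold change (0.58 ± 0.37 in even-numbered and 0.94 ± 0.40 in odd-numbered mice), neither of which passed (adjusted p = 0.406 and 0.145). With the mouse number as a replicate block the value in odd-numbered mice passed (1.45, adjusted p = 0.0223 in edgeR), as did the difference between the sets at pH 6.9 against fresh cells (-2.09, adjusted p = 0.0260, against -1.19 and 0.216 without the block).

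Socs2, a brake on growth hormone and STAT5 signalling (chr10:95385362-95417180, minus strand), had 30.8 to 77.7 CPM at pH 6.9 (median 43.3), 21.7 to 106 CPM at pH 7.4 (median 53.0) and 17.5 to 52.8 CPM in fresh cells (median 41.1). The log2 fold changes were 0.44 ± 0.41 at pH 6.9 and 0.57 ± 0.40 at pH 7.4 against fresh cells, with fold intervals of 0.747 to 2.46 and 0.836 to 2.64. The ranges of the groups overlapped widely, and the intervals hold both no change and a doubling.

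Socs1, Socs3, Pim1 and Osm were low, at 0 to 20.7 CPM in every tested library. Socs1 (chr16:10782240-10785536, minus strand), an inhibitor of JAK kinases, had 5.29, 0 and 1.56 CPM at pH 6.9, 3.95, 1.94 and 2.27 CPM at pH 7.4, and 3.23 and 4.80 CPM in fresh cells of even-numbered mice. Odd-numbered mice had 6.22 and 8.49 CPM at pH 6.9, 0.966, 4.97 and 1.21 CPM at pH 7.4, and 4.26 and 1.08 CPM in fresh cells. The pH 6.9 libraries overlapped the others in even-numbered mice and were the highest in odd-numbered mice. A value of 0 in pH 6.9 replicate 4 allows up to 0.907 CPM (3 counts). The log2 fold changes of Socs1 between groups had SEs of 0.78 to 0.87, and the fold interval for pH 6.9 against pH 7.4 ran from 0.529 to 5.03.

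Socs3 (chr11:117966079-117970047, minus strand), the main brake on signals from the G-CSF receptor and the IL-6 receptor family, had 4.46 to 9.97 CPM at pH 6.9 (median 7.22), 2.60 to 17.39 CPM at pH 7.4 (median 8.78) and 3.88 to 11.6 CPM in fresh cells (median 6.50). In even-numbered mice its pH 6.9 libraries (7.05, 9.97 and 7.22 CPM) lay above the fresh ones (3.88 and 5.44 CPM), a log2 fold change of 0.83 ± 0.68 that did not pass (adjusted p = 0.493 in edgeR). Over the groups its log2 fold change was 0.08 ± 0.51 at pH 6.9 and 0.35 ± 0.49 at pH 7.4 against fresh cells. Socs3 is shown in sequence because its promoter, read as the 250 bases before the start that RefSeq gives, was the one among the matched members' promoters that held the STAT motif TTCNNNGAA (searched on both strands, which read alike). The stretch below lies on the minus strand at chr11:117969502-117969530 (RefSeq, GRCm38.p6), with the motif in capitals and its first base 154 bases before that start. The GENCODE gene, whose coordinates are given above, begins 681 bases further upstream, so this stretch lies inside it.
Socs3: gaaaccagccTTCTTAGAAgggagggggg
RefSeq promoters were matched for 6 of the 9 genes (Kit, Csf3r, Socs1, Socs3, Cish and Pim1; 8 promoters), and 1 of the 8 held the motif, against 7.02% of all 32851 promoters. The RefSeq start also lies 633 bases into the GENCODE gene for Cish and 2332 bases into it for 1 of the Pim1 promoters, so these windows lie inside the genes. The bases before the GENCODE starts of Cish and Socs3 were not searched. The Socs3 match describes the letters shown and no binding was measured here.

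Pim1 (chr17:29490753-29496112, plus strand) had 2.72 to 16.3 CPM at pH 6.9 (median 9.98), 5.54 to 16.4 CPM at pH 7.4 (median 8.81) and 7.81 to 20.7 CPM in fresh cells (median 14.3). Its log2 fold change was -0.60 ± 0.49 at pH 6.9 and -0.49 ± 0.47 at pH 7.4 against fresh cells, within the spread of the libraries. Osm (chr11:4236420-4241026, plus strand) had 7.05, 7.25 and 3.12 CPM at pH 6.9 and 6.84, 6.60 and 1.95 CPM at pH 7.4 in even-numbered mice, which overlapped. In odd-numbered mice it had 0 (which allows up to 1.86 CPM) and 4.46 CPM at pH 6.9 against 5.31, 9.37 and 8.44 CPM at pH 7.4, and the cultures did not overlap there. The fresh libraries held 3.31 to 7.55 CPM. The difference between the sets was 1.75 ± 1.24 (adjusted p = 0.367 in edgeR), and among the alternatives run it passed only without pH 6.9 replicate 5 (8.06, adjusted p = 0.0474), where the odd-numbered pH 6.9 cells are left with 1 library at 0 counts, so that the size of that value has no meaning as a fold.

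Within the sets of mice, the libraries of 1 to 3 of the 9 members separated in each comparison, and with 9 members 1 gene more or less moves such a share widely. In even-numbered mice 2 of 9 separated at pH 6.9 against fresh cells (40.1% of all genes), 3 of 9 at pH 7.4 against fresh cells (1 above and 2 below, with 19.3% of all genes above and 17.6% below) and 2 of 9 at pH 6.9 against pH 7.4 (31.2%). In odd-numbered mice 3, 1 and 3 of 9 did so in the same order of comparisons (43.8%, 23.3% and 37.5%). Apart from Csf2rb no member was called in these 6 comparisons, in which 10.1%, 0.116% and 6.24% of all genes were called in even-numbered mice and 0.49%, 0.107% and 10.6% in odd-numbered mice. No member was called for the difference between the sets either, where 12% of all genes were called at pH 6.9 against fresh cells, 0.0891% at pH 7.4 against fresh cells and 17.2% at pH 6.9 against pH 7.4. The comparisons share libraries, so their values are not independent. Over the 36 pairs of members, Pearson r of log2 CPM across the 15 libraries ranged from -0.55 (Socs3 with Pim1) to 0.66 (Socs1 with Cish). It was 0.58 for Csf3r with Socs3, 0.54 for Kit with Socs3 and -0.52 for Kit with Socs1. Libraries share depth and amplification, and these r were not tested. Of the 8254 genes compared, log2 CPM most like that of Kit was found for Copa (r = 0.85), Cltc (0.84) and Tnks2 (0.84), for Csf3r in Fig4 (0.78), Cog7 (0.77) and Ubxn6 (0.77), and for Cish in Cox4i2 (0.89), Tgtp2 (0.79) and Ylpm1 (0.79). For Osm it was Snx20 (0.89), Cd27 (0.87) and Pde4b (0.86). The closest gene was Slc25a44 for Socs1 (0.80), Fbxo4 for Socs2 (0.78), Gask1b for Socs3 (0.81) and Zfp935 for Pim1 (0.85).

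Other genes of the same pathways were also called within the sets of mice but not between the groups. Lists of 5 kinds, 113 genes in all, covered other cytokine receptor chains, JAK kinases and STAT factors, other brakes on cytokine signalling, other known STAT targets and feedback genes of the RAS and MAPK arm. Of the 97 genes tested between groups, 0 were called in each of the 3 comparisons. Of the 101 tested within sets, 8 were higher and 1 lower at pH 6.9 than in fresh cells in even-numbered mice (8.91%, against 10.1% of all genes). At pH 6.9 against pH 7.4, 8 were higher and 0 lower in even-numbered mice (7.92%, against 6.24%), and 2 were higher and 5 lower in odd-numbered mice (6.93%, against 10.6%). Between pH 7.4 culture and fresh cells 0 were called in either set. For the difference between the sets at pH 6.9 against pH 7.4, 15 were higher and 2 lower (16.8%, against 17.2%). These shares lie near those of all genes. The calls depend on leaving out 3 libraries from the fits. Of the 37 calls of named genes, Csf2rb included, that could be tested with all 18 libraries, 0 passed (adjusted p of 0.0557 to 1 in edgeR). These are calls within sets or for a difference between them. The 3 libraries are on neither side of pH 6.9 against pH 7.4 in even-numbered mice. There the log2 fold changes stayed alike with all 18 (2.41 in both fits for Csf2rb2, 2.50 in both for Egr1). The adjusted p rose in these fits, which share 1 estimate of the spread over all libraries. The calls also lie along the contrast in which granule-progenitor markers of even-numbered mice differed. These markers summed to 34.5 to 50.5 CPM at pH 6.9 and 1789 to 5224 CPM at pH 7.4, and their part was not tested.

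All 11 JAK and STAT genes were tested. At pH 6.9 against pH 7.4, 10 of the 11 had a positive log2 fold change in even-numbered mice (median 0.45, 2 higher past the threshold; 54.9% of all genes were positive and 2.68% were called higher), and 0 of 11 in odd-numbered mice (median -0.64, 1 lower past the threshold; 46.1% positive and 5.64% called lower). The medians of all genes were 0.07 and -0.08 there. Set against fresh cells, the pH 6.9 cultures of even-numbered mice had 3 of 11 higher past the threshold (4.98% of all genes), with a median of 0.84 against 0.10 over all genes. Those of odd-numbered mice had 0 of 11 higher (0.0534% of all genes), with a median of -0.19 against -0.03. The difference between the sets was positive in 11 of 11 genes at pH 6.9 against pH 7.4 (median 1.08, against 0.17 and 55.7% positive over all genes), and 4 passed, where 8.72% of all genes were called higher: Jak1, Jak2, Stat3 and Stat6 (1.39 ± 0.43, adjusted p = 0.0301 in edgeR). A shift in this direction was not particular to JAK and STAT genes. The feedback genes of the RAS and MAPK arm had a median difference of 1.77 in the same test, with 13 of 17 positive, 5 called higher and 0 lower. Between the groups as a whole the 11 JAK and STAT genes had a median of -0.04 at pH 6.9 against pH 7.4, with 0 called.

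Stat3, the factor that carries much of the G-CSF signal, had the lowest adjusted p of the JAK and STAT genes for the difference between the sets. In even-numbered mice it had 150, 202 and 126 CPM at pH 6.9, 110, 61.0 and 96.0 CPM at pH 7.4, and 67.9 and 67.9 CPM in fresh cells. In odd-numbered mice it had 105 and 81.4 CPM at pH 6.9, 246, 233 and 183 CPM at pH 7.4, and 139 and 79.0 CPM in fresh cells. The libraries of 31.2% of all genes separated between the cultures in even-numbered mice and of 37.5% in odd-numbered mice. For the difference between the sets 17.2% of all genes were called. For Stat3 the cultures did not overlap in either set, and they stood in opposite order. The log2 fold change of pH 6.9 against pH 7.4 was 0.87 ± 0.25 in even-numbered mice (adjusted p = 0.0480 in edgeR, lost in 11 of 15 fits leaving out 1 library, up to 0.211 without pH 7.4 replicate 4, and lost with the replicate block). In odd-numbered mice it was -1.25 ± 0.29 (adjusted p = 0.0121, and 0.114 without pH 6.9 replicate 5). The difference of 2.12 ± 0.39 (adjusted p = 0.00104) passed in all 15 such fits and did not pass with all 18 libraries (2.68, adjusted p = 0.317). Jak1, Jak2 and the phosphatase gene Ptpn6, whose product SHP-1 dampens cytokine receptors, differed between the sets in the same direction, by 1.57 ± 0.37, 1.94 ± 0.50 and 1.25 ± 0.25 (adjusted p = 0.00588, 0.0113 and 0.00183). Jak2 alone of these did not pass without pH 6.9 replicate 5 (0.0554), and none of the 3 passed with all 18 libraries (0.833, 0.161 and 0.400, and a log2 difference of 0.50 for Jak1). In even-numbered mice Jak2 was higher at pH 6.9 than at pH 7.4 (1.42 ± 0.33, adjusted p = 0.0157), which was lost without pH 7.4 replicates 2 (0.0501) and 4 (0.0730) and without pH 6.9 replicates 4 (0.0644) and 6 (0.0758). In odd-numbered mice Ptpn6 was lower (-0.76 ± 0.19, adjusted p = 0.0154), which was lost without pH 6.9 replicates 1 (0.0985) and 5 (0.0928). With all 18 libraries neither Stat3 contrast within a set passed (1 in even-numbered and 0.332 in odd-numbered mice), nor did those of Jak2 (0.861) and Ptpn6 (0.367).

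**Figure D4:**
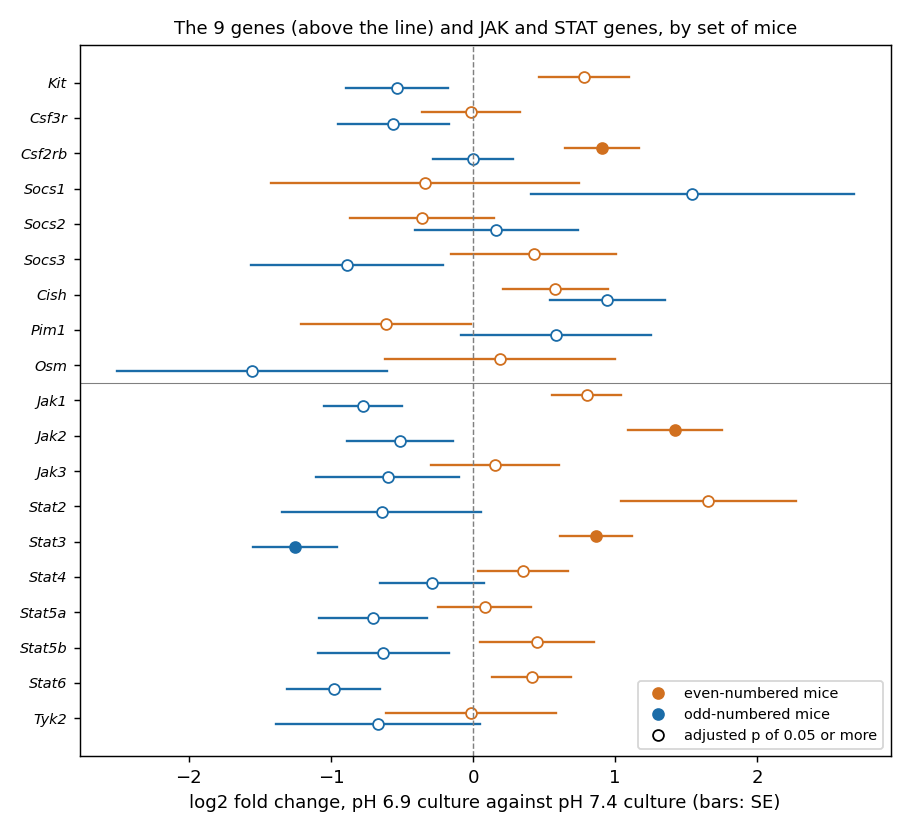
Log2 fold change of pH 6.9 against pH 7.4 culture (points, with SE as bars) in even- and odd-numbered mice for the 9 genes above the line and 10 of the JAK and STAT genes below it; filled points passed an adjusted p of 0.05. The filled points are Csf2rb, Jak2 and Stat3 in even-numbered mice and Stat3 in odd-numbered mice, and the JAK and STAT genes drawn lie left of 0 in odd-numbered mice.

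Of the 27 other receptor chains tested within sets, 3 were higher and 0 lower at pH 6.9 than at pH 7.4 in even-numbered mice (2.68% of all genes were called higher, 6.24% in either direction): Csf2rb2, the M-CSF receptor Csf1r (2.72 ± 0.74, adjusted p = 0.0367 in edgeR) and the IL-4 receptor Il4ra (1.51 ± 0.32, adjusted p = 0.00852). The call for Csf1r was lost in 5 of 15 fits leaving out 1 library, with an adjusted p of 0.133 to 0.176 without a pH 7.4 library (2 or 6) and 0.0532 to 0.130 without a pH 6.9 library (2, 4 or 6). That for Il4ra was lost without pH 7.4 replicate 6 (0.0659). In odd-numbered mice 1 chain was higher and 2 were lower (10.6% of all genes in either direction), Ifngr2 of the interferon-gamma receptor among them (-1.87 ± 0.57, adjusted p = 0.0433), which was lost in 8 of 15 such fits (up to 0.230, without pH 7.4 replicate 3) and with the replicate block (0.196). Of the 17 feedback genes of the RAS and MAPK arm, which Kit also feeds, 2 were higher in even-numbered mice (2.68% of all genes), Egr1 (2.50 ± 0.52, adjusted p = 0.0107, and 0.0684 without pH 7.4 replicate 6) and Spry1 (1.64 ± 0.45, adjusted p = 0.0367, lost in 6 of 15 fits, up to 0.148 without pH 7.4 replicate 6, and 0.0611 with the block). In odd-numbered mice 1 was lower (5.64% of all genes), the ERK phosphatase gene Dusp6 (-1.59 ± 0.36, adjusted p = 0.00973, and 0.130 without pH 6.9 replicate 5). With all 18 libraries the adjusted p was 0.755 for Csf1r, 1 for Il4ra, 0.743 for Egr1 and 1 for Spry1 in even-numbered mice, and 0.175 for Ifngr2 and 0.267 for Dusp6 in odd-numbered mice.

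Genes called in even-numbered mice at pH 6.9 against fresh cells included Spry1 (2.01 ± 0.54, adjusted p = 0.0231 in edgeR), the NF-kappa-B cofactor gene Bcl3 (1.39 ± 0.37, adjusted p = 0.0215), Stat3 (1.27 ± 0.30, adjusted p = 0.0107), Jak1 (1.09 ± 0.28, adjusted p = 0.0170) and Ptpn6 (1.002 ± 0.188, adjusted p = 0.00272). Bcl2, which encodes a survival protein, was lower (-1.18 ± 0.37, adjusted p = 0.0466). The fresh side of this comparison is 2 libraries: without fresh replicate 2 none of these passed (0.272, 0.234, 0.0967, 0.0884, 0.0574 and 0.156 in the order given). Without fresh replicate 6, Bcl3 (0.0576), Stat3 (0.0712), Jak1 (0.134) and Bcl2 (0.150) did not pass. Leaving out pH 6.9 replicate 2 also ended the calls for Spry1 (0.0549) and Bcl3 (0.0746), replicate 4 that for Jak1 (0.0779) and replicate 6 that for Spry1 (0.0706). Bcl2 passed in 8 of 15 fits leaving out 1 library. With the replicate block Bcl2 (0.0702) and Bcl3 (0.0511) did not pass. None of the 6 passed with all 18 libraries (0.170 to 0.984). Among known STAT targets at pH 6.9 against pH 7.4, Id2 was higher in even-numbered mice (2.00 ± 0.47, adjusted p = 0.0186, lost in 4 of 15 such fits, up to 0.109 without pH 7.4 replicate 6, and 0.670 with all 18 libraries). Trib1 was called higher in odd-numbered mice (adjusted p = 0.0345), where its counts include 0 and give no bound on the fold; the call was lost in 7 of 15 fits (up to 0.0966, without pH 6.9 replicate 1) and with the replicate block (0.137).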

How the data were processed

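Libraries were made with SMART-Seq v4 and Nextera XT, which keep no strand, per the labels' protocols. The submitters' processing notes name kallisto and mm10 with no version. The deposited table gives the authors' estimated counts for each gene symbol, all of them whole numbers, and the sources used here do not say how transcripts were summed. Members, lists and tests were chosen with earlier results of these data known, and nothing here is independent support for them.

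Counts were filtered (filterByExpr), TMM-scaled and tested in edgeR 4.0.16 by robust quasi-likelihood (R 4.3.3, limma 3.58.1), with Benjamini-Hochberg adjustment over all genes tested (threshold 0.05). Libraries with under 1e+05 counts or under 10000 genes detected were left out (3 of 18). A group fit used 10659 genes, and a fit of group by index set used 11226. CPM are counts per 1e+06 of the TMM-scaled total, and of the plain total in libraries left out. Overlapping genes cannot be told apart without strand. Counts are not unique molecules, so floors (3 counts for a 0) cover counting error only. The scripts were tested on simulated data. Coordinates are from GENCODE on GRCm38 (mm10) and promoters from RefSeq (GRCm38.p6). All 9 members and their values are given; up to 4 called genes per list are named, those with the largest fold (some are not reported here), and the 3 most similar genes of a member (mean of at least 10 CPM, prior count 2). The design names 6 individual mice, so equal mouse numbers may mark pairs of libraries, though no label says that equal numbers are the same mouse. The main fits treat the libraries as unpaired, and the mouse number as a block was run as an alternative. Correlations of 12 same-number pairs of libraries in their deviations from the mean of their group and index set were -0.0951 to 0.156, and 4 exceeded 0.1. Sets hold 2 or 3 libraries, and in a set of 2 the deviations mirror each other, so these values cannot decide whether libraries pair. Alternatives were DESeq2 size factors, no filter, all 18 libraries, DESeq2 1.42.0, the mouse number as a block, leaving out each library, and a motif window of 100 bases.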

Additional observations from a re-analysis of the deposited data

Results flagged for a closer look

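The 19 results here were marked because the effect of culture or pH differed between even- and odd-numbered mice in an edgeR test of that difference, which is given here on the log2 scale as even minus odd. None concerns the 9 members, and in 27 checks of the members' CPM for a library far from the others of its group (about 1 in 20 is marked by chance) 0 were found. Over all genes the median difference was 0.18 at pH 6.9 against fresh cells, 0.02 at pH 7.4 against fresh cells and 0.17 at pH 6.9 against pH 7.4.

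At pH 6.9 against pH 7.4 the difference was 1.57 for Jak1, 1.94 for Jak2, 2.12 for Stat3, 1.25 for Ptpn6, 4.24 for Csf1r, 2.43 for Csf2rb2, 2.21 for Il4ra, 2.58 for Egr1, 2.56 for Spry1, 2.09 for Dusp6, 1.92 for Bcl3 and -12.46 for Trib1. The Trib1 value rests on libraries at 0 counts and is no measure of size. Jak1, Stat3, Ptpn6, Il4ra, Dusp6, Bcl3 and Trib1 passed in all 15 fits leaving out 1 library. Jak2 (adjusted p = 0.0554), Csf1r (0.0778) and Csf2rb2 (0.0981) did not pass without pH 6.9 replicate 5. Spry1 did not pass without pH 6.9 replicate 1 (0.0527) or 5 (0.0518). Egr1 did not pass without pH 6.9 replicates 2 (0.0627) and 5 (0.121), or pH 7.4 replicates 1 (0.0679), 4 (0.0544) and 6 (0.0636). With the replicate block, Trib1 alone of these did not pass (0.0527). With all 18 libraries none of the other 11 passed: the adjusted p ran from 0.0897 for Csf1r to 0.833 for Jak1, and was 0.317 for Stat3, 0.400 for Ptpn6, 0.302 for Il4ra, 0.325 for Dusp6 and 0.330 for Bcl3. Trib1 was not among the genes tested there.

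At pH 6.9 against fresh cells the difference was 1.74 for Jak1, 1.49 for Stat3, 1.36 for Ptpn6, 2.86 for Ifngr2, 2.10 for Dusp6 and 1.87 for Bcl3. Ptpn6 passed in all 15 fits leaving out 1 library and Jak1 in all but that without fresh replicate 3 (0.0869). Dusp6 was lost without fresh replicates 3 (0.0600) and 6 (0.0532) and pH 6.9 replicate 5 (0.0641). Stat3 passed in 10 of the 15 (up to 0.203, without fresh replicate 3), Ifngr2 in 8 (up to 0.0963, without pH 6.9 replicate 5) and Bcl3 in 10 (up to 0.134, without fresh replicate 2). With the replicate block Stat3 (0.0663), Ifngr2 (0.0748) and Bcl3 (0.123) did not pass. None of the 6 passed with all 18 libraries: Ptpn6 had an adjusted p of 0.217, Stat3 0.216, Dusp6 0.176, Ifngr2 0.0557 and Bcl3 0.163, and Jak1 changed sign (-0.656, 0.688). At pH 7.4 against fresh cells the difference was -4.51 for Csf2rb2, which did not pass with all 18 libraries (0.997). The sequencing index and the mouse number change together between the sets, so they cannot be told apart.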

How the results depend on the processing

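The members' fold changes kept their side of the threshold in most alternatives. Of 2160 member values, 15 passed where the main value did not and 11 did not pass where it did. The sign changed in 129 of the 2160, none of which passed in either fit, and in 13 of these by at least the SE. Jak1 at pH 6.9 against fresh cells changed sign with all 18 libraries, to -0.0373 in even-numbered mice and -0.656 for the difference between the sets, and neither then passed. Counts of genes called moved over 1.5 times in these cases, and the cause was not tested. With no filter, at pH 7.4 against fresh cells 369 were called in even-numbered mice, 317 in odd-numbered mice and 264 for the difference between the sets, and 391 in odd-numbered mice at pH 6.9 against fresh cells. With all 18 libraries, the counts in the order pH 6.9 against fresh cells, pH 7.4 against fresh cells and pH 6.9 against pH 7.4 were 50, 0 and 0 in even-numbered mice, 1, 1 and 58 in odd-numbered mice, and 644, 0 and 159 for the difference. With DESeq2, 1 gene was called between the cultures over the groups, 137 at pH 7.4 against fresh cells and 1099 between the cultures in even-numbered mice, 277 and 170 at pH 6.9 and pH 7.4 against fresh cells in odd-numbered mice, and 104 for the difference at pH 7.4 against fresh cells. With the mouse number as a replicate block, 5 were called at pH 7.4 against fresh cells in even-numbered mice, and 27, 21 and 785 in odd-numbered mice in the order above. Leaving out 1 library gave, in that order, 412 to 1305, 0 to 22 and 163 to 898 in even-numbered mice, 15 to 144, 1 to 30 and 473 to 1336 in odd-numbered mice, and 469 to 1542, 0 to 32 and 1368 to 2016 for the difference; a set left with 1 library was assumed to vary like the others. With all 18 libraries 0 of 37 calls of named genes passed (adjusted p of 0.0557 to 1; Trib1 was not among the genes tested there). Stat3 between the cultures in even-numbered mice did not pass with DESeq2 size factors (adjusted p = 0.0505), and Kit passed with no filter in even-numbered mice between the cultures (0.0287) and for the difference at pH 6.9 against fresh cells (0.00474) and pH 7.4 (0.00480), the last also with DESeq2 (0.0452), all in edgeR unless named otherwise. In windows of 100 bases the motif was in 2.55% of promoters. Sets hold 2 or 3 libraries of 100 cells, and the low counts of Socs1 and Osm leave the widest intervals.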
